A study of Homo sapiens with 18 samples.

Results

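The genes described here are the 10 that encode the common parts of protein phosphatase 2A (PP2A), its striatin adaptors and the factors that assemble or mark it. They were chosen by gene name and role from 58051 gene rows, by a rule that uses no measured value but was written with earlier results of these data known. They comprise the catalytic subunits PPP2CA and PPP2CB, the scaffold subunits PPP2R1A and PPP2R1B, the striatins STRN, STRN3 and STRN4, the activator PTPA, the methylesterase PPME1 and the methyltransferase LCMT1. All 10 had counts in every library, from 267 in the lowest library for LCMT1 to 6817 in the highest for PPP2CA, and all passed the filter on low counts.

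RNA was sequenced from SKMEL2 and SKMEL30, established human melanoma cell lines that are both NRAS-mutant. Each line carried pTRIPZ-PPP2R3B, a lentiviral vector selected with puromycin from which doxycycline switches on a Myc-tagged copy of PPP2R3B, the gene for the PP2A regulatory subunit PR70. Both lines were sampled uninduced, after 6 hours and after 18 hours of induction as the labels give the times (the study's text puts the later one slightly earlier), with 3 libraries in each of 6 groups and 18 in all. The uninduced groups carried the vector too, and all induced groups received doxycycline, so the agent and the overexpressed gene cannot be told apart. The sources used here do not say that the 3 libraries of a group were separate cultures, so p-values measure the spread between these libraries. In bulk RNA, fewer cells of a kind and less RNA per cell cannot be told apart.

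PP2A works as a trimer. A scaffold subunit holds a catalytic subunit, and one of many regulatory B subunits, such as PR70, docks on this core and directs it to substrates. The striatins are a further B class and tie PP2A to the kinases of the STRIPAK complex. PTPA helps to load and activate the catalytic subunit, LCMT1 methylates its last residue, a leucine, and PPME1 removes that methyl group. The methylated tail favours the docking of some B subunits.

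The end of the catalytic chain is shown because it is the site on which LCMT1 and PPME1 act. The last 30 coding bases before the stop codon of PPP2CA and of the related phosphatases PPP4C and PPP6C, from the annotation of the GRCh37 build, run 5′ to 3′ as given here with the final leucine codon in capitals.
PPP2CA: gttactcgtcgtaccccagactacttcCTG
PPP4C: tccaagaagcccgtggccgactacttcCTG
PPP6C: cctcccagaacgacaacgccatatttcCTT
In GRCh37 coordinates they lie at chr5:133533466-133533495 on the minus strand, chr16:30096351-30096380 on the plus strand and chr9:127911955-127911984 on the minus strand. Each lies within 1 coding exon, and all 3 end in a leucine codon. PPP2CA was thus measured here beside 2 genes whose products end in the same residue.

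The libraries held 13402645 to 22383470 counts assigned to genes. One library, SKMEL2 induced for 6 hours, replicate 3, stood apart, with a root mean square deviation from its group of 0.306 on the log2 scale against 0.209 to 0.265 in the other 8 SKMEL2 libraries, and the log2 differences that moved most with it are given with and without it. The melanocytic markers MITF, SOX10, MLANA, PMEL, TYR, DCT and S100B were expressed in all 18 libraries. TYRP1 was at 3.43 to 12.1 CPM (TMM-scaled counts per 1000000) in SKMEL2 and at 1105 to 1319 CPM in SKMEL30. Of the markers of other cell types, CD3E and CDH5 were at or near 0. The leukocyte gene CD14 was at 1.99 to 3.56 CPM in SKMEL2 and at 0 to 0.150 CPM in SKMEL30. PTPRC, another leukocyte gene, was at 0.277 to 0.803 CPM in SKMEL2 and at 0.0544 to 0.316 CPM in SKMEL30. The keratinocyte genes KRT5 and KRT14 reached 37.5 and 26.4 CPM in SKMEL30 induced for 6 hours, replicate 3, against at most 0.380 and 0.822 CPM in the uninduced SKMEL30 libraries, and 6.48 and 4.17 CPM in SKMEL30 induced for 18 hours, replicate 3. At 6 hours they were at 2.96 and 2.10 CPM in replicate 1 and at 0.0501 and 0.201 CPM in replicate 2. Of 3 markers of other cell types tested in SKMEL30 at 6 hours, 2 had an unadjusted edgeR p under 0.05 and 0 were called. In SKMEL2, KRT5 was at 8.26, 5.22 and 3.61 CPM uninduced and at 0.166, 0 and 4.02 CPM at 6 hours, and KRT14 had a log2 difference of -1.58 at 6 hours (unadjusted p = 0.0497, edgeR adjusted p = 0.989). The part of these genes in the results below was not tested. LUM, a fibroblast gene, was at 27.5 to 32.6 CPM in SKMEL30 and at 1.58 to 3.18 CPM in SKMEL2. The collagen genes COL1A2 and COL1A1 were not higher in SKMEL30. COL1A2 was at 0 to 0.513 CPM in SKMEL30 and at 1.05 to 3.50 CPM in SKMEL2. COL1A1 was at or below 0.924 CPM in all 18 libraries, with medians of 0.282 CPM in SKMEL30 and 0.610 CPM in SKMEL2.

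The induced gene was checked first. PPP2R3B stood at 24.3, 20.5 and 17.1 CPM in uninduced SKMEL2, at 343, 418 and 515 CPM at 6 hours and at 425, 511 and 484 CPM at 18 hours. In SKMEL30 it stood at 22.4, 19.8 and 20.6 CPM uninduced, at 521, 534 and 565 CPM at 6 hours and at 616, 617 and 613 CPM at 18 hours. Every induced library lay far above every uninduced library of its line. Vector and chromosomal copies were counted together.

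The question put to the 10 genes was whether the rest of the PP2A machinery moved when 1 regulatory subunit was raised. No member passed the test at either time in either line (edgeR quasi-likelihood test, Benjamini-Hochberg adjustment over all genes tested, called at an adjusted p under 0.05). The background was low as well. In SKMEL2, 0.0124% of the 16120 genes tested were called at 6 hours and 0.0124% at 18 hours, and in SKMEL30 0.206% and 0.293% of 15026 genes. The log2 differences of the members from uninduced cells ran from -0.09 to 0.14 in SKMEL2 at 6 hours (-0.10 to 0.07 without the library that stood apart), from -0.19 to 0.09 in SKMEL2 at 18 hours, from -0.16 to 0.03 in SKMEL30 at 6 hours and from -0.12 to 0.00 in SKMEL30 at 18 hours. The intervals give the range of change for 1 gene at a time, as measured by the spread between these libraries. Across the 10 members, the 95% intervals reached from 0.842-fold to 1.27-fold in SKMEL2 at 6 hours, from 0.783-fold to 1.23-fold at 18 hours, from 0.834-fold to 1.14-fold in SKMEL30 at 6 hours and from 0.842-fold to 1.09-fold at 18 hours.

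**Figure D1:**
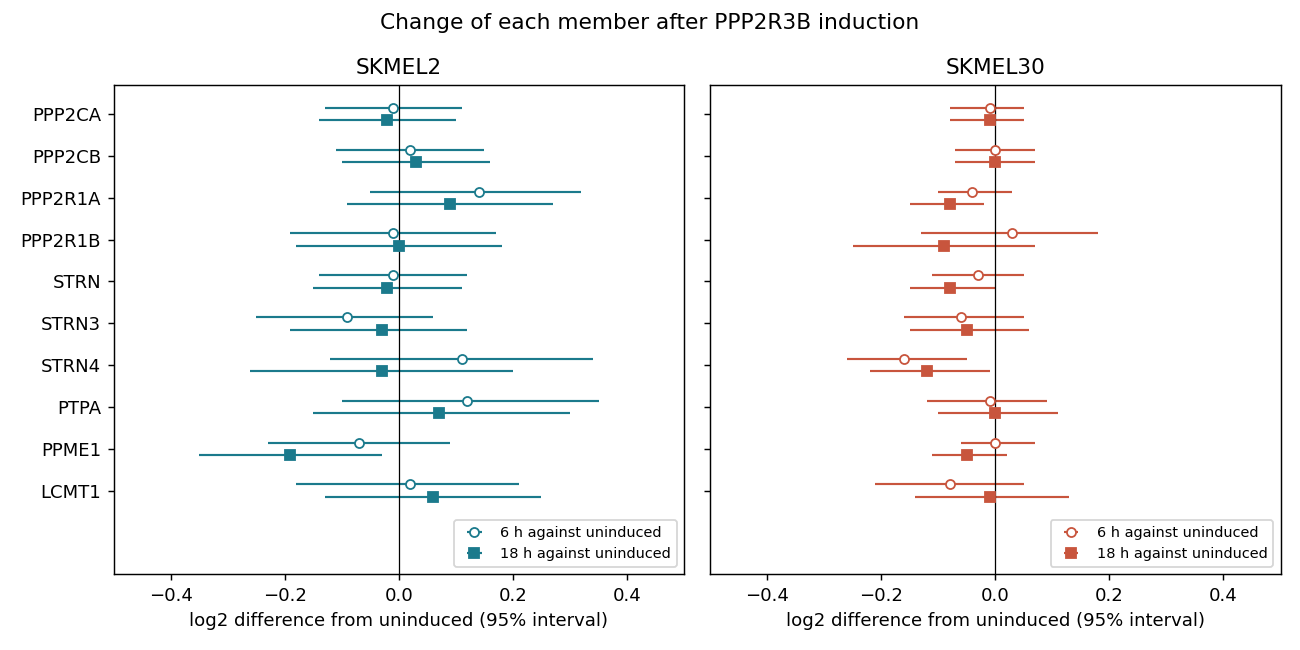
Log2 difference of each member from uninduced cells of the same line at 6 hours (open circles) and 18 hours (filled squares), with 95% intervals from the edgeR fit of the 9 libraries of a line. All estimates lie between -0.19 and 0.14, and none has an adjusted p under 0.05.

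Among the catalytic subunits, PPP2CA (ENSG00000113575, chr5:134194332-134226073 in GRCh38), which encodes the alpha isoform, stood at 288, 300.1 and 299.7 CPM in uninduced SKMEL2, at 287, 309 and 282 CPM at 6 hours and at 278, 301 and 297 CPM at 18 hours. In SKMEL30 it stood at 293, 291 and 312 CPM uninduced, at 302, 301 and 287 CPM at 6 hours and at 295, 296 and 297 CPM at 18 hours. All 6 groups overlapped, and the log2 differences from uninduced cells were -0.01 and -0.02 in SKMEL2 (SE 0.05 each) and -0.01 and -0.01 in SKMEL30 (SE 0.03 each). The estimated counts of PPP2CA were not whole in any of the 18 libraries, which arises where reads also match another gene.

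PPP2CB (ENSG00000104695, on chromosome 8), the second catalytic gene, stood at 75.0, 74.6 and 69.0 CPM in uninduced SKMEL2 and at 112, 111 and 117 CPM in uninduced SKMEL30. The 6 induced libraries of SKMEL2 lay between 72.1 and 77.3 CPM and those of SKMEL30 between 111 and 115 CPM. The lines were apart and the times were not, with log2 differences on induction of 0.02 and 0.03 in SKMEL2 and of 0.00 and 0.00 in SKMEL30.

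Of the scaffold subunits, PPP2R1A (ENSG00000105568, chr19:52190052-52229518), the main scaffold gene of most tissues, stood at 123, 131 and 117 CPM in uninduced SKMEL2, at 129.7, 122 and 154 CPM at 6 hours and at 128, 131 and 136 CPM at 18 hours. The highest value was that of the library that stood apart. The log2 difference at 6 hours was 0.14 (SE 0.08, edgeR adjusted p = 0.989) with that library and 0.02 without it. In SKMEL30, PPP2R1A stood at 188, 186 and 181 CPM uninduced, at 184, 176 and 182 CPM at 6 hours and at 175, 179 and 171 CPM at 18 hours. At 18 hours the log2 difference was -0.08 (95% interval -0.15 to -0.02, unadjusted p = 0.0170 and edgeR adjusted p = 0.425), which did not pass the test.

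PPP2R1B (ENSG00000137713, chr11:111688000-111766389), the second scaffold gene, stood at 43.8, 40.3 and 39.7 CPM in uninduced SKMEL2 and at 30.6, 27.5 and 29.9 CPM in uninduced SKMEL30. Its induced libraries ran from 35.2 to 43.8 CPM in SKMEL2 and from 25.6 to 32.8 CPM in SKMEL30 and overlapped the uninduced ones in both lines. The lowest SKMEL2 value again belonged to the library that stood apart, and the log2 difference at 6 hours was -0.01 with it and 0.07 without it. PPP2R1B overlaps SIK2 on the opposite strand, which held up to 1403.9 counts where PPP2R1B held as few as 377, and whether strand was used in the counting is not given in the sources used here.

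Among the striatins, STRN4 in SKMEL30 was the only case in the 10 members where all 6 induced libraries of a line lay on 1 side of its 3 uninduced ones. STRN4 (ENSG00000090372, chr19:46719511-46746450) stood at 61.3, 65.1 and 58.6 CPM in uninduced SKMEL30, at 54.5, 53.0 and 58.5 CPM at 6 hours and at 56.2, 57.0 and 57.9 CPM at 18 hours. All 6 induced libraries were below the 3 uninduced ones, but the highest of them missed the lowest uninduced one by little. The log2 differences were -0.16 at 6 hours (95% interval -0.26 to -0.05, unadjusted p = 0.00683, edgeR adjusted p = 0.490) and -0.12 at 18 hours (-0.22 to -0.01, unadjusted p = 0.0346, edgeR adjusted p = 0.500), and neither passed the test. Separation of this kind was found for 4.39% of all genes tested in SKMEL30 and 2.48% in SKMEL2, against 1 of 10 members and 0 of 10 members.

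In SKMEL2, STRN4 stood at 69.1, 73.5 and 82.9 CPM uninduced, at 74.4, 73.1 and 95.1 CPM at 6 hours and at 69.8, 72.2 and 79.0 CPM at 18 hours, and all groups overlapped. Its log2 difference at 6 hours was 0.11 with the library that stood apart and -0.03 without it. The 6 hour response of STRN4 differed between SKMEL30 and SKMEL2 by -0.26 on the log2 scale (95% interval -0.51 to 0.00, edgeR adjusted p = 0.902 for the interaction). Without that library the difference was -0.12.

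STRN (ENSG00000115808, chr2:36837698-36966536), which gave the family its name, stood at 73.9, 72.1 and 75.1 CPM in uninduced SKMEL2 and at 109, 106 and 100.3 CPM in uninduced SKMEL30. The SKMEL30 libraries at 18 hours stood at 102, 99.5 and 96.9 CPM, and the log2 difference of -0.08 (SE 0.04, unadjusted p = 0.0580, edgeR adjusted p = 0.566) did not pass the test. STRN3 (ENSG00000196792, chr14:30893804-31026379), another STRIPAK adaptor, stood at 67.4, 67.6 and 69.4 CPM in uninduced SKMEL2 and at 42.8, 39.1 and 39.4 CPM in uninduced SKMEL30. The library that stood apart was the lowest SKMEL2 value at 56.1 CPM, and the log2 difference at 6 hours was -0.09 with it and -0.02 without it. STRN3 shares its locus with COCH and AP4S1 on the opposite strand, which held up to 382.8 and 269 counts.

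Among the assembly factors, PPME1 (ENSG00000214517, chr11:74171289-74254703) had the lowest log2 difference of any member in SKMEL2. It stood at 68.0, 78.5 and 79.3 CPM uninduced, at 67.6, 73.4 and 73.8 CPM at 6 hours and at 62.8, 64.7 and 71.0 CPM at 18 hours. The 18 hour group was lower on average but its highest library overlapped the uninduced ones. The log2 difference of -0.19 (SE 0.08, 95% interval -0.35 to -0.03, unadjusted p = 0.0266) had an edgeR adjusted p of 0.987 and did not pass the test. In SKMEL30, PPME1 stood at 199, 208 and 213 CPM uninduced, at 209, 207 and 207 CPM at 6 hours and at 196, 202 and 202 CPM at 18 hours, with log2 differences of 0.00 and -0.05.

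LCMT1 (ENSG00000205629, chr16:25111742-25178228), which opposes PPME1, was the member with the fewest counts. It stood at 25.4, 27.6 and 23.1 CPM in uninduced SKMEL2 and at 23.5, 24.4 and 23.5 CPM in uninduced SKMEL30. At 6 hours the SKMEL30 libraries stood at 20.8, 22.1 and 24.3 CPM, a log2 difference of -0.08 (SE 0.06, edgeR adjusted p = 0.853) that did not pass the test. PTPA (ENSG00000119383, chr9:129110950-129148946) stood at 91.9, 98.8 and 80.7 CPM in uninduced SKMEL2 and at 88.3, 91.8 and 91.3 CPM in uninduced SKMEL30. Its 18 libraries overlapped throughout, from 80.7 to 109 CPM, and the highest was the SKMEL2 library that stood apart. Its log2 difference in SKMEL2 at 6 hours was 0.12 (SE 0.10, edgeR adjusted p = 0.989) with that library and 0.03 without it. PTPA overlaps CRAT on the opposite strand, which held up to 251 counts.

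Of the 10 members, 5 lay below 0 and 5 above in SKMEL2 at each time. In SKMEL30 7 lay below 0 at 6 hours and 8 at 18 hours, where 49.7% of all genes tested lay below 0 at each time, with a median log2 difference of -0.05 at 18 hours against 0.00 over all genes tested, and the 2 times share their uninduced libraries. At an unadjusted p under 0.05 there were 0 and 1 members in SKMEL2 and 1 and 2 in SKMEL30 at 6 and 18 hours, and DESeq2 called 0 in each. Over all genes tested that threshold took in 3.37% and 4.65% in SKMEL2 and 6.44% and 9.14% in SKMEL30. Between 18 and 6 hours no member was called in either line by edgeR and none had an unadjusted p under 0.05. The background of that comparison was 0% of genes in SKMEL2 and 0.0200% in SKMEL30. No member's response differed between the lines by the interaction test, with lowest adjusted p-values of 0.902 at 6 hours and 0.895 at 18 hours and none under an unadjusted p of 0.05, where 0% and 0.00584% of 17133 genes were called. The 6 hour difference of PPP2R1A was -0.17 (SE 0.09, edgeR adjusted p = 0.902) with the library that stood apart and -0.06 without it. Its 18 hour difference was -0.17 (SE 0.09, edgeR adjusted p = 0.895) and ran from -0.22 to -0.14 with 1 library left out.

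**Figure D2:**
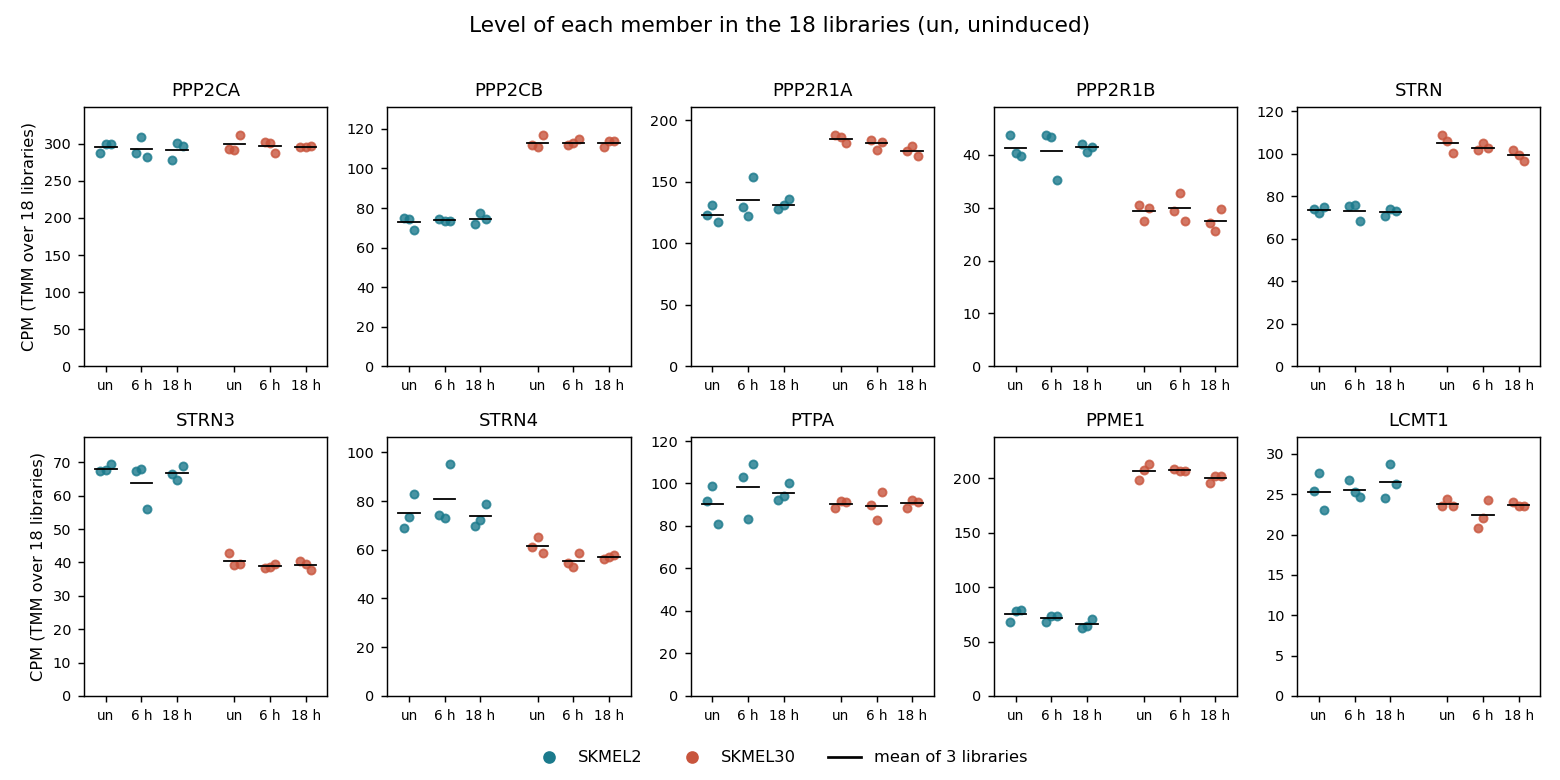
CPM of each member (vertical axes, from 0) in the 18 libraries, by line and time, with a black bar at the mean of 3 libraries. The 6 induced libraries of a line as a set overlap its 3 uninduced ones for all members but STRN4 in SKMEL30, whereas the lines are apart for PPP2CB, PPP2R1A, PPP2R1B, STRN, STRN3, STRN4 and PPME1 in uninduced cells.

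The lines themselves differed far more than the times. In uninduced cells 7 of the 10 members passed the edgeR test between SKMEL30 and SKMEL2, 4 higher and 3 lower in SKMEL30, where 75.9% of the 17133 genes tested were called, 35.8% higher and 40.1% lower. The share of members called was thus close to that of all genes. PPME1 differed most. It was 2.74-fold higher in SKMEL30 (log2 difference 1.46, SE 0.06, edgeR adjusted p = 1.38e-14), with 199 CPM in the lowest SKMEL30 library and 79.3 CPM in the highest SKMEL2 library. The ratio of the group means was 2.75 uninduced, 2.90 at 6 hours and 3.03 at 18 hours.

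PPP2CB was higher in SKMEL30 by 0.64 on the log2 scale (SE 0.04, edgeR adjusted p = 7.88e-11), PPP2R1A by 0.58 (SE 0.06, adjusted p = 7.02e-08) and STRN by 0.51 (SE 0.05, adjusted p = 7.83e-09). STRN3 was lower in SKMEL30, with a log2 difference of -0.75 (SE 0.06, edgeR adjusted p = 1.68e-09), as were PPP2R1B at -0.49 (SE 0.08, adjusted p = 2.4e-05) and STRN4 at -0.29 (SE 0.09, adjusted p = 0.00532). In each of the 3 families of paralogs, then, at least 1 member differed between the lines, and in the scaffold and striatin families members differed in opposite directions. PPP2CA, PTPA and LCMT1 did not pass the test. Their 95% intervals ran from -0.08 to 0.11, from -0.17 to 0.18 and from -0.25 to 0.07 on the log2 scale, so the interval of PPP2CA was the narrowest of these. Each line is a single transduced population, and line, donor and vector integration cannot be told apart.

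**Figure D3:**
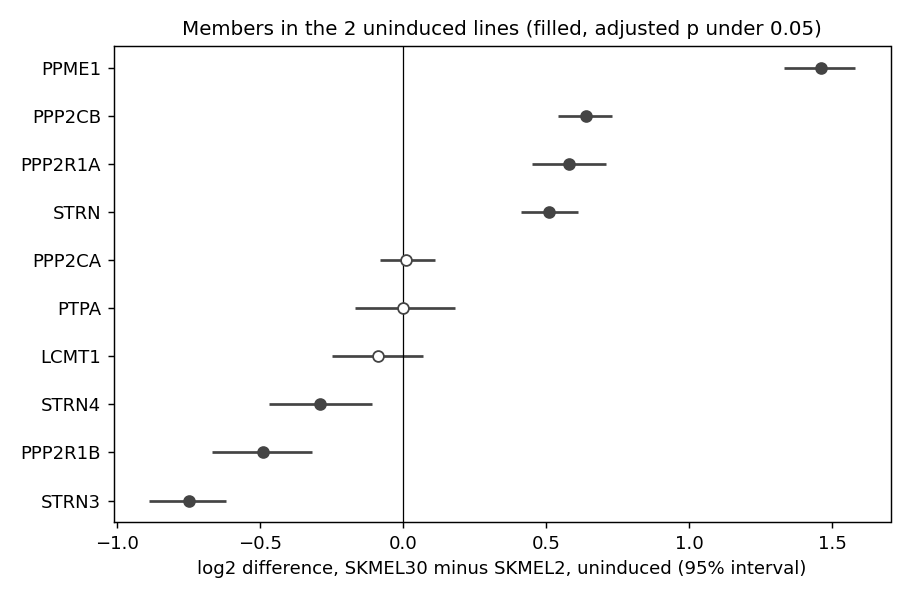
Log2 difference of each member between uninduced SKMEL30 and SKMEL2, with 95% intervals from the edgeR fit of all 18 libraries. Filled points (7 of 10) have an adjusted p under 0.05. PPME1 lies farthest to the right at 1.46 and STRN3 farthest to the left at -0.75.

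To compare genes with each other, levels were divided by the combined length of the exons of a gene (CPM per kilobase). On this scale PPP2CA was the highest member in both uninduced lines, at 45.6 ± 1.02 in SKMEL2 and 46.0 ± 1.77 in SKMEL30 (mean ± SD, n = 3). In SKMEL2 the next levels were 16.2 ± 0.745 for PPP2CB and 16.1 ± 1.62 for PTPA, which differed by less than their spread, then 13.7 ± 0.223 for STRN3 and 11.9 ± 0.646 for PPP2R1A. STRN4 at 9.84 ± 0.920, LCMT1 at 9.73 ± 0.863 and PPME1 at 9.71 ± 0.818 were level with each other. PPP2R1B at 6.18 ± 0.328 and STRN at 5.14 ± 0.103 were the lowest. In SKMEL30, PPME1 came second at 26.7 ± 0.975, close to PPP2CB at 25.1 ± 0.694, and PPP2R1A at 17.9 ± 0.312 and PTPA at 16.1 ± 0.336 followed. LCMT1 at 9.14 ± 0.210, STRN3 at 8.14 ± 0.408, STRN4 at 8.07 ± 0.425 and STRN at 7.31 ± 0.290 came next, STRN3 and STRN4 within their spread, and PPP2R1B was the lowest at 4.39 ± 0.238. The middle of this order depends on the length used. With the longest annotated transcript in its place, PPP2CA still had the highest mean in both lines, at 60.8 and 61.3 CPM per kilobase. PPP2CB came second in both, at 37.4 and 58.2 CPM per kilobase, and PPME1 was the third in SKMEL30 at 51.0. In SKMEL30 the libraries of PPP2CA (59.8 to 64.0) and PPP2CB (57.0 to 60.0) overlapped on this length.

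The same scale gives the share of each paralog. PPP2CA made up 73.8% ± 1.19 of the summed catalytic level in uninduced SKMEL2 and 64.7% ± 0.256 in uninduced SKMEL30. PPP2R1A made up 65.9% ± 1.65 of the scaffold level in SKMEL2 and 80.3% ± 0.907 in SKMEL30. Among the striatins on this length, STRN3 had the highest share in SKMEL2 at 47.8% ± 1.22, with STRN4 at 34.2% ± 1.77 and STRN at 17.9% ± 0.581. In SKMEL30 the shares on this length were STRN3 at 34.6% ± 1.29, STRN4 at 34.3% ± 1.39 and STRN at 31.1% ± 0.170. With both induced times taken as a set, every one of these shares overlapped the uninduced range in both lines. At 6 hours alone the STRN share in SKMEL30, at 32.2%, 33.2% and 31.4%, lay above the uninduced 31.3%, 31.0% and 30.9%. The widest excursion was in the SKMEL2 library that stood apart, where PPP2R1A was 73.9% of scaffold and STRN4 43.7% of striatins. The split between paralogs depends on the lengths used as well. With the longest transcripts STRN4, not STRN3, had the highest striatin share, at 49.1% in SKMEL2 (STRN3 38.6%, STRN 12.4%) and at 49.9% in SKMEL30 (STRN3 28.3%, STRN 21.7%). PPP2CA then made up 61.9% of the catalytic level in SKMEL2 and 51.3% in SKMEL30, and PPP2R1A 75.6% and 86.7% of scaffold. The order of STRN3 and STRN4 within a line can therefore not be read from these data. STRN had the lowest share in both uninduced lines under both lengths, by little in SKMEL30 on the combined exon length. Under both lengths STRN3 had the higher and STRN the lower share in SKMEL2 than in SKMEL30.

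**Figure D4:**
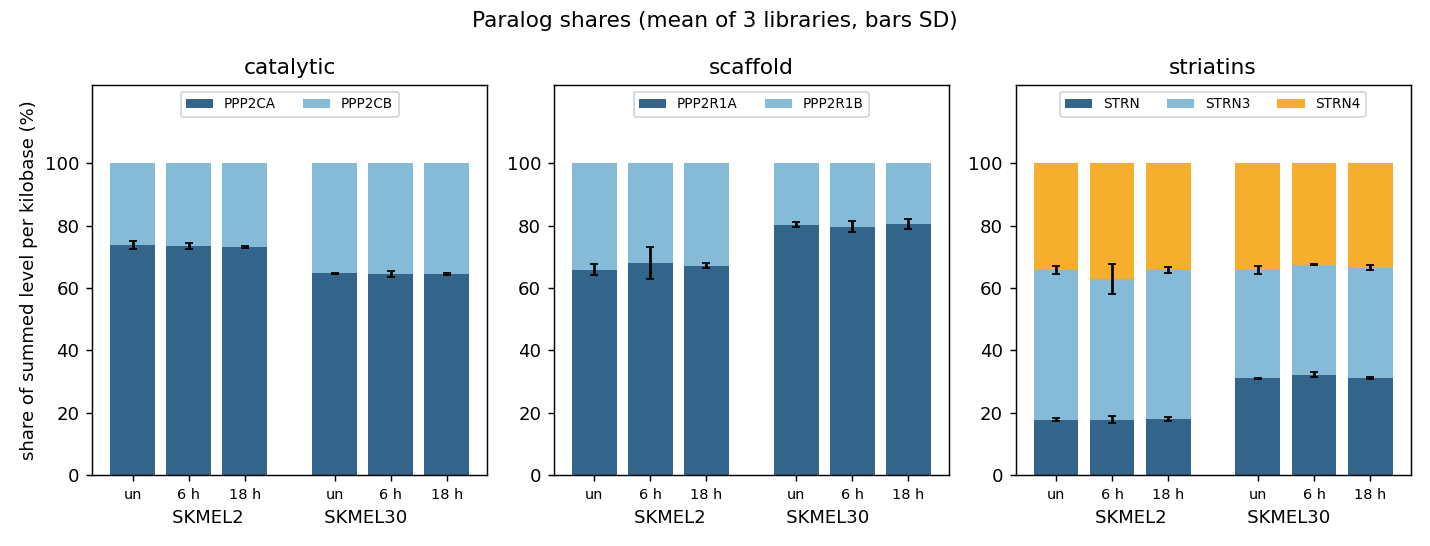
Share of each paralog in the summed level per kilobase of the catalytic, scaffold and striatin genes (vertical axes in percent), by line and time, as the mean of 3 libraries with bars for the SD. The shares differ between lines, with STRN at 17.9% in uninduced SKMEL2 and 31.1% in uninduced SKMEL30 for the combined exon length. Within a line the induced libraries of both times, taken as a set, overlap the uninduced ones.

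PPP2R3B was switched on by design and no core gene was called, so a rise in its ratio to them was set in advance. The ratios give the size of that rise and test nothing about the members. The ratio of PPP2R3B to the summed scaffold level per kilobase was 0.146, 0.121 and 0.110 in uninduced SKMEL2, 1.98, 2.52 and 2.82 at 6 hours and 2.52, 3.02 and 2.77 at 18 hours. In SKMEL30 it was 0.109, 0.0992 and 0.103 uninduced, 2.60, 2.69 and 2.88 at 6 hours and 3.25, 3.22 and 3.24 at 18 hours. Induced and uninduced libraries did not overlap. The induced group means were 19.4-fold and 22.0-fold higher in SKMEL2 and 26.2-fold and 31.2-fold higher in SKMEL30, and in every induced library this 1 B subunit's transcript exceeded that of both scaffold genes together. The response of PPP2R3B was not called as different between the lines at either time by the interaction test. Against the summed catalytic level the ratio went from 0.0370 ± 0.00665 to 0.767 ± 0.169 and 0.850 ± 0.0462 in SKMEL2 and from 0.0326 ± 0.00253 to 0.844 ± 0.0474 and 0.963 ± 0.00903 in SKMEL30 (mean ± SD, n = 3). The ratio is of RNA, and its level after induction assumes the length of the chromosomal gene for transcripts that come from the vector. The folds over uninduced cells and the comparison with the scaffold genes rest on the same assumption.

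Ratios among the members themselves overlapped between induced and uninduced libraries. The catalytic to scaffold ratio was 3.41 ± 0.127 in uninduced SKMEL2 and 3.19 ± 0.148 in uninduced SKMEL30, and the induced libraries ran from 2.96 to 3.49 and from 3.21 to 3.39. In SKMEL30 it was 3.22, 3.25 and 3.21 at 6 hours and 3.34, 3.36 and 3.39 at 18 hours, so these times did not overlap each other. The ratio of PPME1 to LCMT1, the demethylating against the methylating enzyme, was 1.00 ± 0.134 in uninduced SKMEL2 and 2.92 ± 0.117 in uninduced SKMEL30. It ran from 0.757 to 1.01 in the induced SKMEL2 libraries and from 2.75 to 3.37 in those of SKMEL30, overlapping the uninduced libraries in both lines.

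**Figure D5:**
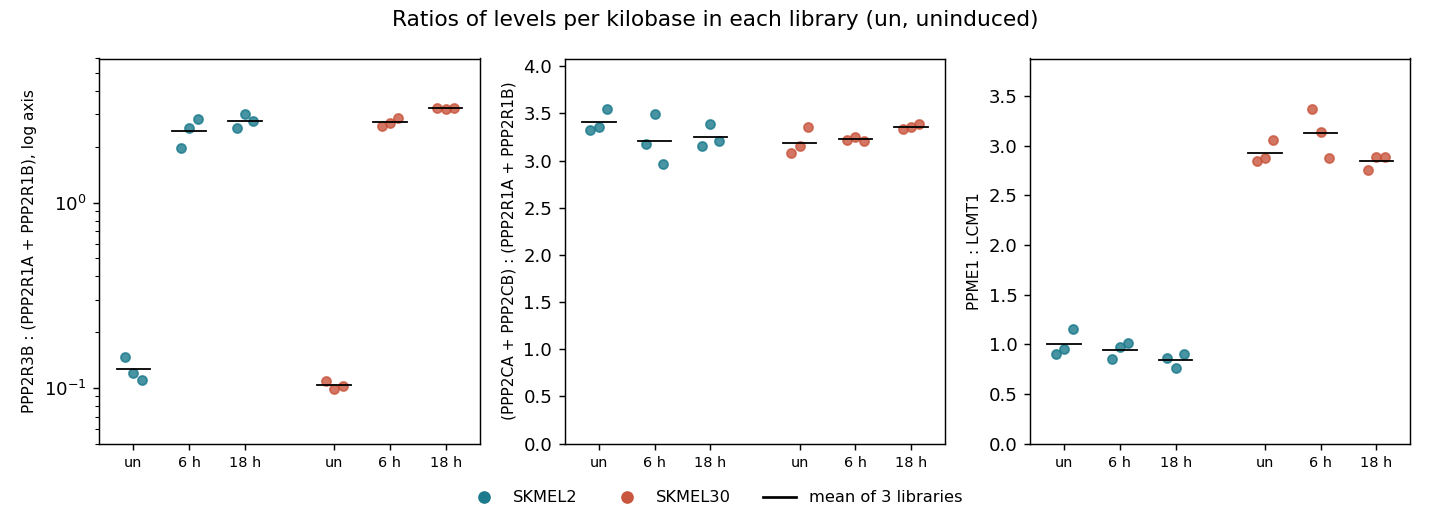
Ratios of levels per kilobase in each library, with a black bar at the mean of 3. The left panel (log axis) shows PPP2R3B against both scaffold genes, where all induced libraries lie at or above 1.98 and all uninduced ones at or below 0.146. The other panels (linear axes from 0) show catalytic to scaffold and PPME1 to LCMT1, where induced libraries overlap the uninduced ones of their line.

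The remaining genes of the pathway were examined as 4 lists. Of 12 regulatory B subunits, 11 were tested in SKMEL2 and 10 in SKMEL30, and PPP2R3B itself was the only one called, in each line at each time, with log2 differences of 4.38 and 4.52 in SKMEL2 and of 4.69 and 4.88 in SKMEL30. Of 13 STRIPAK partners of the striatins, 12 were tested and 0 called. STRIP2, a STRIPAK core component, was at 22.2 CPM at 6 hours and 18.9 CPM uninduced in SKMEL30 (log2 difference 0.23, unadjusted p = 0.00302, edgeR adjusted p = 0.373), CTTNBP2NL, a cortactin-binding partner, had a log2 difference of 0.11 at 18 hours (SE 0.04) and FGFR1OP2 of 0.08 at 6 hours (SE 0.04) in the same line. Of 12 inhibitors and regulators, 12 were tested and 0 called. CIP2A, an inhibitor of PP2A, was at 76.7 CPM at 18 hours and 86.2 CPM uninduced in SKMEL2 (log2 difference -0.17, unadjusted p = 0.0217, edgeR adjusted p = 0.987). ANP32A, an inhibitor protein, had a log2 difference of -0.12 at 6 hours and MASTL, the kinase that turns ENSA and ARPP19 into PP2A inhibitors, of -0.18 at 18 hours in SKMEL2. Of 10 genes of the related phosphatases PP4 and PP6, 10 were tested in SKMEL2 and 9 in SKMEL30, and 0 were called. PPP4R3A, a PP4 regulatory subunit, had a log2 difference of -0.17 at 18 hours in SKMEL2 (SE 0.06, unadjusted p = 0.0120, edgeR adjusted p = 0.987), PPP4R2 of 0.07 at 6 hours in SKMEL30 (SE 0.04) and PPP4C, the PP4 catalytic subunit, of 0.14 at 18 hours in SKMEL2 (SE 0.10). At an unadjusted p under 0.05 in SKMEL2 at 6 and 18 hours and SKMEL30 at 6 and 18 hours there were 0, 0, 1 and 2 STRIPAK partners, 0, 1, 0 and 0 inhibitors and regulators and 1, 1, 0 and 1 PP4 and PP6 genes, beside 3.37%, 4.65%, 6.44% and 9.14% of all genes tested. DESeq2 called 0 genes of these 3 lists in the same comparisons. The medians of the 4 lists lay between -0.05 and 0.02 in the 4 comparisons with uninduced cells, against 0.00 over all genes tested.

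Between the uninduced lines genes of every list were called. Of the 11 B subunits tested, 4 were higher and 3 lower in SKMEL30, of the 12 STRIPAK partners 5 and 7, of the 10 PP4 and PP6 genes 4 and 3, and of the 12 inhibitors and regulators 7 and 0, beside the 35.8% and 40.1% over all genes. In uninduced cells PPP2R3B did not pass the test between the lines, at 20.9 and 20.6 CPM in SKMEL30 and SKMEL2.

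Across the 18 libraries, with the mean of each line subtracted, the genes whose log2 CPM was most like that of PPP2CA were NFYB (Pearson r = 0.88), C17orf80 (0.85) and TTK (0.85), and those most like PPP2R1A were RPL13 (0.96), APRT (0.96) and NCAPH2 (0.95). The 99th percentile over 14078 genes was 0.68 for PPP2CA and 0.85 for PPP2R1A. Among the members the highest values were 0.78 for PPP2R1A with PTPA and 0.71 for STRN with STRN3, and PPP2R1A with STRN3 gave -0.59. Without the SKMEL2 library that stood apart, over 17 libraries, the values were 0.88, 0.85 and 0.82 for the 3 genes beside PPP2CA and 0.91, 0.89 and 0.91 for those beside PPP2R1A. PPP2R1A with PTPA was then at 0.70, STRN with STRN3 at 0.54 and PPP2R1A with STRN3 at 0.13, so the negative value rested on that library. The points share library preparation and depth, and these values are a description.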

How the data were processed

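RNA-seq of 18 libraries was used, 3 in each of 6 groups. The study's methods describe poly(A) RNA libraries sequenced in pairs, trimmed, aligned to the human GRCh38 transcriptome with STAR and counted with RSEM (version 1.3.0 in the submitters' processing notes). The deposited values are RSEM expected counts per gene that the authors did not normalise. Of them, 12.3% were not whole, and they were rounded for testing. All columns were mapped to samples by name.

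Genes were filtered with filterByExpr and scaled by TMM, and tested with the quasi-likelihood test of edgeR 4.0.16 in R 4.3.3, over the 9 libraries of a line (16120 and 15026 genes) or over all 18 for the line difference and interactions (17133). P-values were adjusted by Benjamini-Hochberg over all genes tested and intervals cover 95%. CPM use TMM over the 18 libraries. The script was tested on simulated data. Alternatives were DESeq2 1.42.0, RLE scaling, other filters, other sets of libraries, a replicate block and leaving out each library. Totals of 13402645 to 22383470 set the depth, and precision rests on 3 libraries a group.

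Gene positions are from RefSeq (GRCh38.p14), exon lengths from the GENCODE annotation lifted to GRCh37, and sequences from its transcripts. Genes named were the 10 members, PPP2R3B, list genes called on induction or otherwise up to 3 a list by smallest p, and the 3 genes most like PPP2CA and PPP2R1A. The members and lists were chosen with earlier results of these data known. Replicate numbers did not pair the libraries. The correlation of their deviations exceeded 0.1 for 2 of 9 same-numbered pairs in SKMEL2 and 1 of 9 in SKMEL30.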

Additional observations from a re-analysis of the deposited data

How the results depend on the processing

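No member was called on induction, between the times or in its difference between lines under any alternative run, and the 7 members called between the uninduced lines were 7 under each of them. Counts over all genes moved more. For the comparisons with uninduced cells, in the order SKMEL2 at 6 and 18 hours and SKMEL30 at 6 and 18 hours, the counts of 2, 2, 31 and 44 became 158, 168, 321 and 359 with no filter on low counts and 6, 7, 5 and 9 with all 18 libraries in a single fit. DESeq2 gave 8, 11 and 71 for the first, second and last, and a fit of the 6 libraries alone gave 9 in SKMEL2 at 18 hours. Leaving out 1 library gave 2 to 5, 2, 16 to 33 and 25 to 30. The 5 came without SKMEL2 induced 6 hours replicate 3. In SKMEL30 at 6 hours 16, 20 and 17 came without uninduced replicate 1, uninduced replicate 3 and induced 6 hours replicate 3, and at 18 hours 25, 29, 29 and 27 without uninduced replicates 1, 2 and 3 and induced 18 hours replicate 3. Between 18 and 6 hours the 0 of SKMEL2 became 5 (DESeq2), 135 (no filter) and 0 to 1 (1 library left out), and the 3 of SKMEL30 became 12 (DESeq2), 197 (no filter), 5 (a minimum of 10 counts per library), 0 (the 6 libraries alone, or all 18) and 0 to 5 (1 library left out). For the difference between the lines the 0 at 6 hours became 237 (no filter) and 0 to 1, and the 1 at 18 hours became 3 (DESeq2), 216 (no filter) and 1 to 2. The cause was not tested.

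With a replicate block, which the check of the numbers did not call for, 7 genes were called in SKMEL2 at 18 hours and 16 in SKMEL30 between 18 and 6 hours, no member was called on induction, and PTPA in SKMEL30 at 18 hours was at -0.00.

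Members near 0 crossed it without being called. With 1 library left out, the log2 difference in SKMEL2 at 6 hours ran from -0.05 to 0.01 for PPP2CA, -0.02 to 0.05 for PPP2CB, -0.06 to 0.07 for PPP2R1B, -0.03 to 0.03 for STRN, -0.03 to 0.18 for STRN4 and -0.05 to 0.08 for LCMT1, and at 18 hours from -0.05 to 0.01 for PPP2CA, -0.01 to 0.06 for PPP2CB, -0.03 to 0.05 for PPP2R1B, -0.09 to 0.04 for STRN4, 0.00 to 0.14 for PTPA and -0.01 to 0.13 for LCMT1. In SKMEL30 it ran at 6 hours from -0.03 to 0.02 for PPP2CA, -0.01 to 0.02 for PPP2CB, -0.05 to 0.09 for PPP2R1B, -0.07 to 0.05 for PTPA and -0.02 to 0.03 for PPME1, and at 18 hours from -0.03 to 0.02 for PPP2CA, -0.01 to 0.02 for PPP2CB, -0.02 to 0.02 for PTPA and -0.02 to 0.01 for LCMT1. The difference in the 6 hour response ran from -0.02 to 0.04 for PPP2CA, -0.04 to 0.02 for PPP2CB, -0.05 to 0.10 for PPP2R1B, -0.06 to 0.01 for STRN and -0.04 to 0.08 for STRN3, and in the 18 hour response from -0.03 to 0.04 for PPP2CA, -0.06 to 0.01 for PPP2CB, -0.04 to 0.03 for STRN3 and -0.15 to 0.00 for PTPA. Between the uninduced lines it ran from -0.01 to 0.05 for PPP2CA, -0.07 to 0.08 for PTPA and -0.09 to 0.16 for PPP2R3B. There PPP2CA was at -0.00, -0.00 and -0.04 under DESeq2, RLE scaling and the filter of at least 10 counts, PTPA at -0.01, -0.01 and -0.05, and at -0.00 with only the uninduced libraries, and PPP2R3B at -0.02 under that filter. PPP2CB in SKMEL30 was at -0.00 with no filter and PPP2CA at -0.00 in the 6 hour response under DESeq2 and RLE scaling.

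Over all alternatives STRN4 in SKMEL30 at 6 hours ran from -0.21 to -0.12 (lowest edgeR or DESeq2 adjusted p 0.0758), and at 18 hours from -0.15 to -0.07 (0.365). PPME1 in SKMEL2 at 18 hours ran from -0.25 to -0.15 (0.375). With 1 library left out, the fold in the ratio of PPP2R3B to scaffold at 18 hours was 20.7 to 24.0 (SKMEL2) and 30.5 to 32.0 (SKMEL30). The difference between the lines in the 18 hour response of PPP2R3B was called only with no filter on low counts (0.36, edgeR adjusted p = 0.0247). The correlations without 1 library were added after the data were seen, and that of PPP2R1A with STRN3 turned from -0.59 to 0.13. What depth limits was not tested apart from the spread between libraries (biological coefficient of variation 8.36% in SKMEL2 and 4.11% in SKMEL30).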
